A study of Homo sapiens with 6 samples.

Results

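The genes described are 3 steroid receptors, *ESR1*, *PGR* and *NR3C1*, and 6 transcription factors of luminal mammary epithelium, *FOXA1*, *GATA3*, *TFAP2C*, *TFAP2B*, *XBP1* and *SPDEF*. They were chosen by name, and all 9 were found among the 16418 genes used. Steroid receptors are transcription factors switched on by a lipid hormone: *ESR1* encodes estrogen receptor alpha, *PGR* the progesterone receptor and *NR3C1* the glucocorticoid receptor. In luminal breast cells, estrogen receptor alpha binds DNA at sites opened by the forkhead factor FOXA1 and shared with GATA3 and the AP-2 factor TFAP2C, and *PGR* is among the best known genes induced by estrogen. XBP1 drives the secretory capacity of the endoplasmic reticulum, and SPDEF is an ETS factor of secretory and luminal epithelia.

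The study sequenced mRNA of 6 established human breast cancer lines from a single read end, each line giving 1 library with no replicate. The labels describe all 6 as epithelial in morphology. The disease label is ductal carcinoma for T47D and UACC-812, adenocarcinoma for SKBR3 and MDA-MB-415, metastatic carcinoma for MDA-MB-453, and breast carcinoma for CAL51. Per the source labels, MDA-MB-415, SKBR3, T47D and CAL51 came from a pleural effusion, MDA-MB-453 from a pericardial effusion and UACC-812 from the breast. The labels name no drug, steroid hormone, gene edit, receptor status or batch for any line. UACC-812 grew in L-15 medium with 20% fetal bovine serum and 20 ng/ml epidermal growth factor. MDA-MB-415 grew in L-15 medium with 15% serum, to which insulin and glutathione were added at 10 mcg/ml each. SKBR3 grew in RPMI medium with 20% serum, MDA-MB-453 in IMEM with 20% serum, and T47D and CAL51 in RPMI medium with 10% serum. Culture medium and line therefore cannot be told apart.

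Levels are deposited values read as RPKM (reads scaled to exon length and library size) summed over the exons of a gene, so a level is compared between lines for 1 gene and never between genes. The step between low values gave each library's depth, which was 25600000 to 36500000 reads. With 1 library per line no difference carries a replicate error, and no test was run. All 6 epithelial markers checked were above 0 in every line, with *EPCAM*, which encodes an epithelial adhesion molecule, between 1329 in T47D and 3156 in CAL51. *CDH1*, which encodes E-cadherin, was 0.823 in SKBR3 and 107 in CAL51. *KRT19* and *CLDN4* were lowest in CAL51, at 1098 and 2.64. In CAL51 3 of the 6 were at least 2-fold below the median of the 5 other lines, and in MDA-MB-453 5. None was 2-fold above it in either. The median log2 difference of the 6 was -1.66 in CAL51 and -1.73 in MDA-MB-453. It was 1.53 in UACC-812, 1.32 in T47D, -0.29 in MDA-MB-415 and -0.30 in SKBR3. Markers of other cells were mostly low. The summed level of 9 leukocyte markers was 59.0 in SKBR3 to 1645 in MDA-MB-415, while the defining leukocyte gene *PTPRC* was 0 in UACC-812 and T47D and at most 18.8, in CAL51. The 6 measured fibroblast markers summed to 11.3 in SKBR3 to 285 in CAL51, where *PDGFRB* was 188, and the 2 measured endothelial markers summed to 0 in CAL51 and MDA-MB-453 and at most 23.8, in MDA-MB-415. Their part in the results was not tested. In bulk RNA, fewer cells that express a gene and less RNA per cell cannot be told apart.

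*ESR1* was 284 in T47D, followed by UACC-812 with 166 and MDA-MB-415 with 83.0, and it was 0.0522 in SKBR3 and 0.0260 in MDA-MB-453 and listed at 0 in CAL51. The gene was therefore abundant in 3 lines and at trace level or listed at 0 in the other 3, with a gap of 6.32 on the log2(value + 1) scale between MDA-MB-415 and SKBR3. Within the upper 3 lines each step was under 2-fold or close to it: T47D was 1.72 times UACC-812, which was 2.00 times MDA-MB-415. The trace values were worth few reads. If every *ESR1* read lay in its longest exon of 4543 bp, the value in SKBR3 came to 8 reads, with an exact Poisson 95% interval of 3.45 to 15.8. On the same basis MDA-MB-453 held 4 reads (1.09 to 10.2) and CAL51 0 reads, which allows up to 3.69. These intervals cover counting error only. The intervals of the 3 lower lines overlapped, those of SKBR3 and CAL51 only from 3.45 to 3.69. Overlap does not show that the lines are alike, and differences among them were not tested.

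*PGR* was 586 in T47D and 108 in UACC-812, while MDA-MB-415 had 1.63, MDA-MB-453 had 0.639, CAL51 had 0.0969 and SKBR3 was listed at 0. It was high in the same pair of lines that led for *ESR1*, but T47D held 5.41 times as much as UACC-812, and UACC-812 held 66.5 times as much as MDA-MB-415. MDA-MB-415 is where the 2 receptor genes parted. There *ESR1* stood 6.32 log2 units above the median of the other lines, whereas *PGR* was at 1.63. An annotated antisense transcript, PGR-AS1, overlaps 812 of the 15404 exon bases of *PGR*. Whether counting used strand is not stated, so reads from the antisense strand cannot be told apart there.

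*NR3C1* had another order, with MDA-MB-453 at 281, SKBR3 at 167, UACC-812 at 105, T47D at 29.5, MDA-MB-415 at 11.5 and CAL51 at 4.37. The 2 highest lines were among those with trace *ESR1*, and T47D and MDA-MB-415, both with abundant *ESR1*, came after UACC-812. UACC-812 held both receptors, and CAL51 was lowest for *NR3C1* and near 0 for *ESR1*. Neighbours in the upper 3 lines differed by 1.68 and 1.59 times, while each lower step was at least 2.58 times, and MDA-MB-453 held 64.2 times the level of CAL51.

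**Figure D1:**
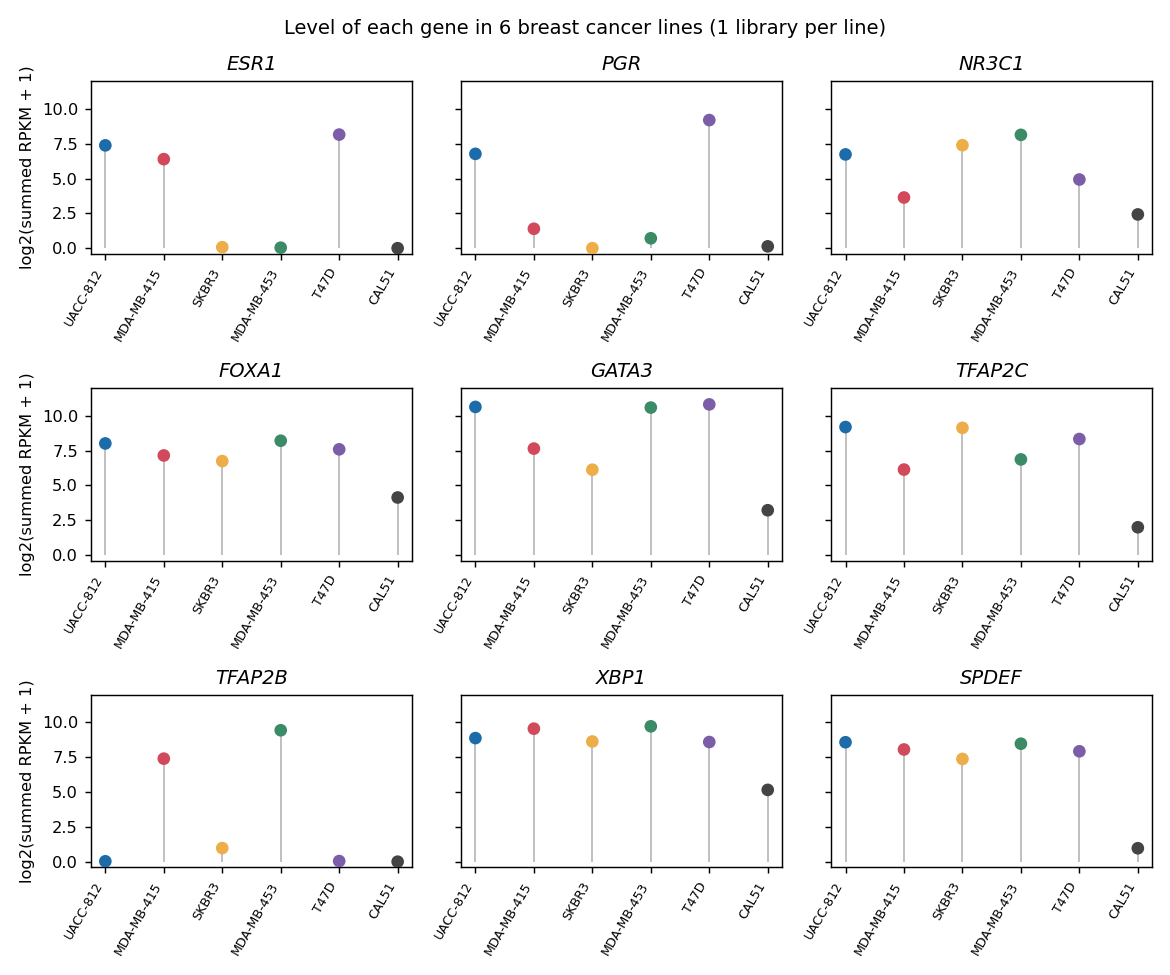
The plot shows the level of each of the 9 genes, as log2(summed RPKM + 1), in the 6 lines, with 1 point for the single library of a line. *ESR1*, *PGR* and *TFAP2B* fall into high and near-zero lines, while *FOXA1*, *XBP1* and *SPDEF* have similar points in 5 lines and a lower one in CAL51 (16.5, 34.8 and 0.963).

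*FOXA1*, the pioneer factor that opens chromatin for steroid receptors, stood at 294 in MDA-MB-453 and 257 in UACC-812, T47D had 191, MDA-MB-415 had 141 and SKBR3 had 106, and CAL51 had 16.5. It was thus abundant in SKBR3 and MDA-MB-453, where *ESR1* was at trace level. Steps among the 5 upper lines were 1.15 to 1.36 times, and the step from SKBR3 down to CAL51 was 6.42 times.

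*GATA3*, the zinc finger factor that specifies luminal fate in the mammary gland, was 1796, 1583 and 1533 in T47D, UACC-812 and MDA-MB-453, followed at a distance by MDA-MB-415 with 198, SKBR3 with 68.7 and CAL51 with 8.28. The 3 highest lines lay within 1.13 times of their neighbours. MDA-MB-453 was then 7.73 times MDA-MB-415, MDA-MB-415 was 2.89 times SKBR3, and SKBR3 was 8.30 times CAL51. The order did not follow *ESR1*: MDA-MB-415, with abundant *ESR1*, held less *GATA3* than MDA-MB-453, with a trace of it.

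The AP-2 pair differed from each other more than most pairs of the 9 genes. *TFAP2C*, which encodes AP-2 gamma, was 582 in UACC-812, SKBR3 had 558 and T47D 319.9, with MDA-MB-453 at 115, MDA-MB-415 at 69.2 and CAL51 at 2.98. UACC-812 and SKBR3 differed by 1.04 times, T47D was 1.75 times below SKBR3, and the step from MDA-MB-415 to CAL51 was 23.2 times. *TFAP2B*, which encodes AP-2 beta, was 695 in MDA-MB-453, with MDA-MB-415 next at 168, and only 0.980 in SKBR3, 0.0378 in T47D, 0.0259 in UACC-812 and 0.00606 in CAL51. The 2 lines that held *TFAP2B* were low for *TFAP2C*, above CAL51 only. In *TFAP2B*, MDA-MB-453 was 4.13 times MDA-MB-415, which was 172 times SKBR3. With all reads in its longest exon of 4522 bp, the lowest *TFAP2B* values came to 5 reads in T47D (95% interval 1.62 to 11.7), 3 in UACC-812 (0.619 to 8.77) and 1 in CAL51 (0.025 to 5.57), so these 3 lines could not be ordered. Another family member, *TFAP2A*, was 266 to 998 in all 6 lines, with 489 in CAL51; it was singled out after its values were seen.

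*XBP1*, the factor of the unfolded protein response made active by splicing of its RNA, was 846 in MDA-MB-453, with MDA-MB-415 close at 752, then UACC-812 at 470.4, SKBR3 at 397 and T47D at 387, but 34.8 in CAL51. Steps among the 5 upper lines were 1.03 to 1.60 times, and T47D was 11.1 times CAL51. Gene totals do not separate the spliced from the unspliced RNA. *SPDEF* was 382 in UACC-812 and 355 in MDA-MB-453, with MDA-MB-415 at 266, T47D at 243 and SKBR3 at 166, but 0.963 in CAL51. Steps among the 5 were 1.08 to 1.47 times, and SKBR3 was 172 times CAL51. For both genes, as for *FOXA1*, CAL51 stood far below the other lines, whose neighbours in the order differed by less than 2-fold.

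Because these 3 genes had the same shape over the lines, the 250 bases before 1 annotated start of each are shown to let the sequences be compared. They are RefSeq promoter windows of GRCh38.p14, all on the minus strand and printed 5′ to 3′; capitals mark the only match in them to any motif searched.
FOXA1, chr14:37595250-37595499: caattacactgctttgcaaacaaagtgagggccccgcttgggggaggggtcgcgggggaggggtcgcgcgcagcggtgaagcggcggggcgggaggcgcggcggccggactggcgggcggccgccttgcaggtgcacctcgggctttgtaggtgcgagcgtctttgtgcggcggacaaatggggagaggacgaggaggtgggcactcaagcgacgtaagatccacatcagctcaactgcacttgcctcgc
XBP1, chr22:28800570-28800819: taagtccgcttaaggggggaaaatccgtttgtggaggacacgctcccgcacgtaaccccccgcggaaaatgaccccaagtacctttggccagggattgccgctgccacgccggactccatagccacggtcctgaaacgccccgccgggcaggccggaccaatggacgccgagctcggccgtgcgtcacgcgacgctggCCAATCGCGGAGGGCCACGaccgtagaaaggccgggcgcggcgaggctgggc
SPDEF, chr6:34556330-34556579: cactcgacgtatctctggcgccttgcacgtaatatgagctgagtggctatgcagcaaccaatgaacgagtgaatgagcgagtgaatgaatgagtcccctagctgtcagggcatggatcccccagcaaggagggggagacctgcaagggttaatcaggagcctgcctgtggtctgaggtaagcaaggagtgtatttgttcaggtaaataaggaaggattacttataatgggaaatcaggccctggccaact
The *FOXA1* window was 67.2% G and C with a CpG observed-to-expected ratio of 0.977, and the *XBP1* window 67.6% with 1.08. The *SPDEF* window was 50.8% with 0.387, below the median of 0.558 over all 35116 RefSeq windows of that length. Of the 3 windows shown, those of *FOXA1* and *XBP1* were therefore CpG-rich and that of *SPDEF* was not. Another *XBP1* window, not shown, was 74.4% G and C with a ratio of 0.636. The capitals in *XBP1* spell the endoplasmic reticulum stress element (CCAAT, any 9 bases, CCACG), first base 52 bases before the start, which 0.074% of all windows held. This motif was added after the sequence was seen, and the *XBP1* window not shown lacked it.

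Windows were found for 8 of the 9 genes, 27 in all, and searched on both strands. The estrogen response element (GGTCA, any 3 bases, TGACC) was in 0 of them and in 0.0399% of all windows, and the glucocorticoid and progesterone element (GNACA, any 3 bases, TGTNC) in 0 and 0.327%. The forkhead motif TGTTTAC was in 1, 59 bases before a start of *NR3C1*, and in 2.98% of all windows. The AP-2 motif GCCNNNGGC was in 6 windows, of *PGR*, *GATA3* and *XBP1*, and in 19.8% of all. The GATA motif AGATAA (9.17% of all windows) and the unfolded protein response element TGACGTGG (0.612%) were in 0. A match is a run of letters and not a bound site, and distant elements lie outside these windows.

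All 9 genes had a range of at least 4 log2 units, or 16-fold, between highest and lowest line, which 21.9% of all genes had. Their ranges were 9.43 for *TFAP2B*, 9.20 for *PGR*, 8.16 for *ESR1*, 7.61 for *SPDEF*, 7.60 for *GATA3*, 7.19 for *TFAP2C*, 5.71 for *NR3C1*, 4.56 for *XBP1* and 4.07 for *FOXA1*, against a median of 2.37 over all genes. *TFAP2B* had a wider range than 98.9% of genes and *FOXA1*, the narrowest of the 9, than 78.8%. Much of this rested on CAL51. Without that line 5 of the 9 genes kept such a range, against 16.0% of all genes. *FOXA1* then spanned 1.46, *SPDEF* 1.20 and *XBP1* 1.13, below the median of 2.06 over all genes, and *TFAP2C* spanned 3.05. *ESR1*, *PGR* and *TFAP2B* spanned 8.12, 9.20 and 9.41, almost what they did with it, and *GATA3* and *NR3C1* spanned 4.69 and 4.50.

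**Figure D2:**
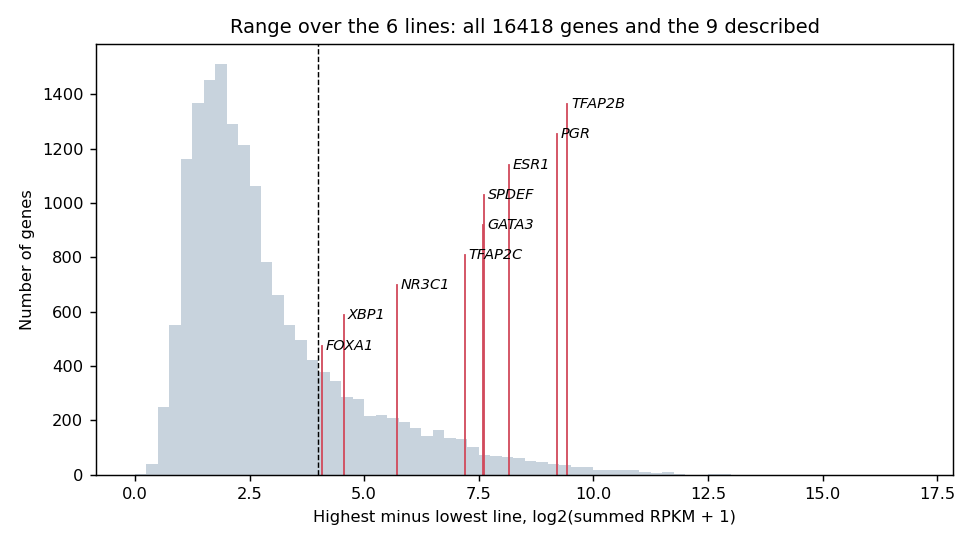
The histogram counts all 16418 genes by the difference between their highest and lowest line in log2(summed RPKM + 1), with the dashed line at 4 log2 units. Red lines place the 9 genes, from *FOXA1* at 4.07 to *TFAP2B* at 9.43, and their heights only separate the names.

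CAL51 was the lowest line for *NR3C1*, *FOXA1*, *GATA3*, *TFAP2C*, *XBP1* and *SPDEF*. The share of all genes lowest in CAL51 was not computed. For *ESR1* and *TFAP2B* CAL51 was among lines near 0 whose order rests on few reads, and for *PGR* SKBR3 was listed at 0. A gene was called apart when a line lay at least 2 log2 units beyond every other line. In CAL51, 5 of 9 genes were apart below (*FOXA1*, *GATA3*, *TFAP2C*, *XBP1* and *SPDEF*), against 1.97% of all genes, and 0 above, against 4.01%. Leaving out each other line in turn gave 5 or 6. *PGR* was apart above in T47D, where 0.834% of all genes were, and *TFAP2B* in MDA-MB-453, where 0.408% were. The gap of *TFAP2B* over MDA-MB-415 was 2.04, just past the threshold, and fell under it with each of 3 other scalings. No gene of the 9 was apart above in UACC-812 (1.8% of all genes), MDA-MB-415 (3.69%) or SKBR3 (0.53%). With T47D left out *PGR* was apart above in UACC-812, and with MDA-MB-453 left out *TFAP2B* was apart above in MDA-MB-415. None was apart below in UACC-812 (0.189% of all genes), MDA-MB-415 (0.78%), SKBR3 (1.94%), MDA-MB-453 (0.956%) or T47D (0.347%).

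Each line had its own combination when a gene was counted as higher or lower at 2-fold, that is 1 log2 unit, from the median of the 5 other lines. UACC-812 was higher for 5 of 9 genes (24.7% of all genes) and lower for 0 (10.3%). Its 5 were *ESR1*, *PGR*, *NR3C1*, *GATA3* and *TFAP2C*, which include all 3 receptor genes, although *NR3C1* stood only 0.57 higher without MDA-MB-415 or without CAL51. *TFAP2B* there passed to the lower side, at -1.25, with TMM (scaling of the lines by a trimmed mean of ratios). T47D was higher for 4 (18.1% of all genes), *ESR1*, *PGR*, *GATA3* and *TFAP2C*, and lower for *NR3C1* (10.1%), at 1.80 log2 units under the median, or -0.25 without SKBR3 or MDA-MB-453 and -0.58 without UACC-812. *TFAP2C* there was 0.33 without MDA-MB-415 or CAL51 and 0.70 without MDA-MB-453. MDA-MB-453 was higher for 5 (12.9%), *NR3C1*, *FOXA1*, *GATA3*, *TFAP2B* and *XBP1*, and lower for *ESR1* and *TFAP2C* (15.9%). *FOXA1* and *XBP1* entered narrowly there, at 1.06 and 1.09, and *FOXA1* fell to 0.91 with TMM. *TFAP2C* was -0.37 without UACC-812 or SKBR3 and -0.77 without T47D. MDA-MB-415 was higher for *ESR1* and *TFAP2B* (19.7%) and lower for *NR3C1*, *GATA3* and *TFAP2C* (18.8%), with *GATA3* at -0.71 without UACC-812 or T47D and -0.74 without MDA-MB-453. SKBR3 was higher for *NR3C1* and *TFAP2C* (9.41%) and lower for *ESR1*, *PGR* and *GATA3* (33.2%), a share near the 3 of 9 counted. The 2 higher in MDA-MB-415, the 2 lower in MDA-MB-453 and the 1 lower in T47D were also near the shares of all genes. CAL51 was higher for 0 (26.0%) and lower for 8 (14.5%), with *TFAP2B* at -0.98 the exception, which passed the threshold at -1.28 with TMM. *PGR* there was -0.38 with a pseudocount of 5 and -0.92 without UACC-812 or T47D. For *TFAP2B*, that value is small because 3 of the other lines were also near 0.

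The median difference of the 9 genes was 1.80 in UACC-812, 1.06 in MDA-MB-453, 0.44 in T47D, 0.13 in MDA-MB-415, -0.68 in SKBR3 and -4.31 in CAL51. Over all genes the same medians were 0.19, 0.00, 0.09, -0.01, -0.46 and 0.23, so SKBR3 read low over the whole table as well as in the 9 genes.

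**Figure D3:**
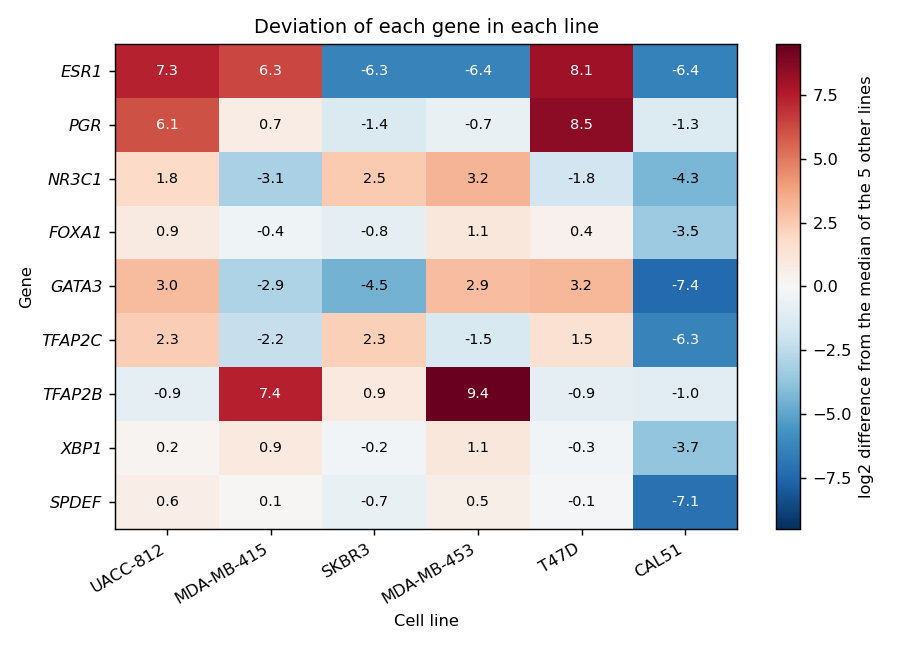
The map gives the log2 difference of each gene in each line from the median of the 5 other lines, red for higher and blue for lower. The CAL51 column runs from -0.98 to -7.37, and the *ESR1* row has 3 lines at 6.32 or more and 3 at -6.32 or less.

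Likeness between genes was measured as the root mean square difference over the 6 lines between log2 profiles, each centred on its own mean. Among the 36 pairs of the 9 genes the closest was *FOXA1* with *XBP1*, at 0.55. *XBP1* with *SPDEF* followed at 1.26, *TFAP2C* with *SPDEF* at 1.35 and *FOXA1* with *SPDEF* at 1.40. *ESR1* was closest to *PGR*, at 2.02, and next to *GATA3*, at 3.06. The farthest pair was *PGR* with *TFAP2B*, at 6.35, and *TFAP2C* with *TFAP2B* stood at 4.78. These figures describe 6 libraries, and a gene that varies little is close to others that vary little.

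Among 13770 genes reaching 10 in some line, the 3 nearest to *ESR1* were *MCOLN3* (0.83), which encodes a lysosomal channel, *GREB1* (0.85), an estrogen-induced cofactor gene, and *HPN* (0.93), which encodes the serine protease hepsin. *GREB1* was 3185 in T47D, 355 in UACC-812, 227 in MDA-MB-415 and 0.854 to 2.56 in the other lines. It thus had the same 3 high lines as *ESR1*, with a steeper lead for T47D. Nearest to *PGR* were the corepressor gene *CBFA2T3* (0.66), *OLFM1* (0.71), which encodes a secreted glycoprotein, and *C6orf97* (0.91), now named *CCDC170*. *OLFM1* was 406 in T47D, 167 in UACC-812 and at most 2.27 elsewhere. All 3, like *PGR*, were high in T47D and UACC-812 and low in MDA-MB-415.

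Nearest to *NR3C1* were *C5orf23* and *NPR3* (0.56 and 0.59) and *C2orf54* (0.61), now *MAB21L4*. RefSeq gives *C5orf23* as an older name of *NPR3*, which encodes the clearance receptor of natriuretic peptides, so the first 2 count as 1 gene. *NPR3* was 94.7 in MDA-MB-453 and 83.5 in SKBR3. Nearest to *TFAP2B* were *LRP1B* (0.89), *CLCA2* (0.98) and *ADCY2* (1.34), which encode a lipoprotein receptor relative, a regulator of chloride channels and an adenylyl cyclase. *CLCA2* was 6153 in MDA-MB-453, MDA-MB-415 had 331, and no other line passed 3.14. Nearest to *TFAP2C* were *GPR126* (0.56), now *ADGRG6*, the clathrin-uncoating gene *DNAJC6* (0.58) and the homeobox gene *IRX2* (0.59). Nearest to *GATA3* were *ANXA9* (0.60), *FN3K* (0.85) and *CDCP1* (0.85), which encode an annexin, a kinase of glycated proteins and a surface glycoprotein.

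The 3 genes low in CAL51 alone had closer neighbours. Nearest to *FOXA1* were the noncoding *NCRNA00174* (0.26), now *LINC00174*, the synaptic scaffold gene *SHANK2* (0.31) and the antiproliferative gene *TOB1* (0.33). Nearest to *XBP1* were *CUZD1* (0.28), *FAM24B* (0.29) and *CORO2A* (0.31), the last encoding a coronin. *CUZD1* and *FAM24B* had similar values in each line, and whether they share exons was not tested. Nearest to *SPDEF* were *USP40* (0.40), *NME3* (0.43) and *MLF1* (0.43), the first 2 encoding a ubiquitin protease and a nucleoside diphosphate kinase.

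**Figure D4:**
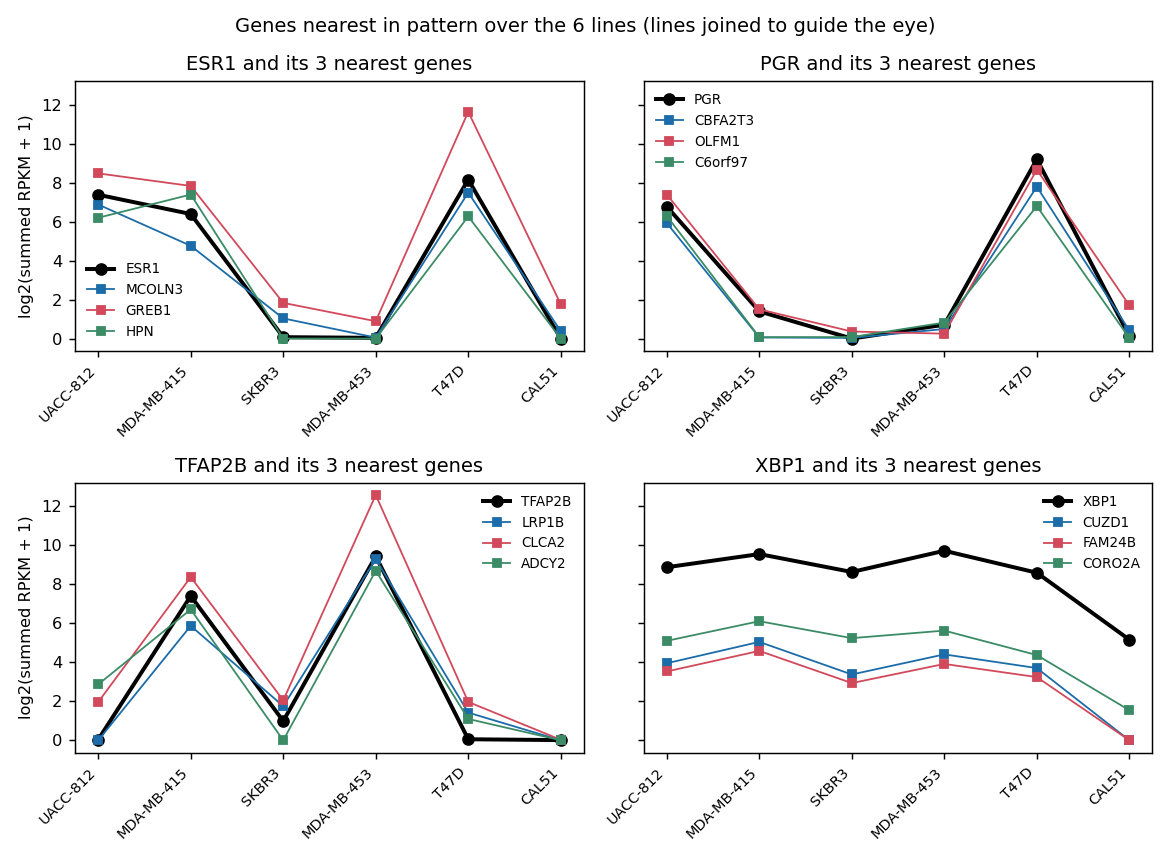
Levels in log2(summed RPKM + 1) are plotted over the 6 lines for *ESR1*, *PGR*, *TFAP2B* and *XBP1* in black and for the 3 genes nearest to each in colour. *GREB1* has the 3 high lines of *ESR1* with a larger step from UACC-812 to T47D (355 to 3185), *CLCA2* peaks in MDA-MB-453 at 6153, and the genes nearest to *XBP1* lie below it with the same drop in CAL51; heights of different genes are not on a shared length scale.

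The genes beside each of the 9 on its chromosome mostly had other patterns, a comparison chosen after the values were seen. *ESR1*, *TFAP2B* and *SPDEF* lie on chromosome 6, *PGR* on 11, *NR3C1* on 5, *FOXA1* on 14, *GATA3* on 10, *TFAP2C* on 20 and *XBP1* on 22. Beside *ESR1*, *C6orf97* was 110.2 in T47D and 77.3 in UACC-812 but 0.0510 for MDA-MB-415, so it had 2 of the 3 high lines of *ESR1* and stood at 2.35 from it. On its other side *SYNE1*, which encodes a nuclear envelope protein, was highest in CAL51 at 348. Near *FOXA1*, the mitochondrial carrier gene *SLC25A21* was the closest of all these neighbours, at 0.70, with 65.4 in MDA-MB-453 and 1.66 in CAL51, whereas *MIPOL1*, which lies between them, ranged from 87.0 to 175. Beside *PGR*, the channel gene *TRPC6* was 833 in CAL51 and 14.03 in T47D, its next highest line.

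The lists of partner and target genes are given as the median log2 difference of a list from the 5 other lines, with the all-gene medians above as reference. The counts at 2-fold are to be read against the shares of all genes. UACC-812 had 24.7% of all genes higher and 10.3% lower, MDA-MB-415 had 19.7% and 18.8%, SKBR3 9.41% and 33.2%, MDA-MB-453 12.9% and 15.9%, T47D 18.1% and 10.1%, and CAL51 26.0% and 14.5%. Of 25 measured genes known to be induced by estrogen, 19 were 2-fold higher and 1 lower in UACC-812, 17 and 3 in T47D, and 8 and 5 in MDA-MB-415. In SKBR3 1 was higher and 17 lower, in MDA-MB-453 4 and 9, and in CAL51 3 and 10. The list medians were 2.48 in UACC-812, 2.46 in T47D and 0.05 in MDA-MB-415, against -2.28, -0.58 and -0.89 in SKBR3, MDA-MB-453 and CAL51. MDA-MB-415 had abundant *ESR1* and a list median close to that of all genes. Beside *GREB1*, the widest ranges were in *STC2*, which encodes a secreted glycoprotein, and the chemokine gene *CXCL12*. *STC2* was 2160.3 in T47D and 1139.8 in UACC-812, MDA-MB-415 had 65.1, CAL51 had 32.6, MDA-MB-453 had 24.7 and SKBR3 had 0.558. *CXCL12* was 1235 in T47D and at most 8.45 elsewhere.

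Of 17 measured genes induced by glucocorticoid or progestin, 12 were 2-fold higher and 1 lower in MDA-MB-415, whose *NR3C1* and *PGR* were both low. In MDA-MB-453, highest for *NR3C1*, 2 were higher and 10 lower, and in T47D, highest for *PGR*, 3 and 9. UACC-812 had 7 and 3, SKBR3 6 and 6, and CAL51 5 and 8. The medians were 1.99 in MDA-MB-415, 0.86 in UACC-812, 0.07 in CAL51, -0.48 in SKBR3, -1.02 in T47D and -1.42 in MDA-MB-453. *BIRC3*, an inhibitor of apoptosis, was 389.9 for MDA-MB-415 with a next highest value of 19.6, the metallothionein gene *MT1X* was 884 there and 159 in SKBR3, its next highest line, and the calcium-binding gene *S100P* was 529 there and 1.57 in MDA-MB-453. The labels name no added steroid, and hormone in the serum was not measured.

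The 24 secretory pathway genes known as XBP1 targets did not share its drop in CAL51. There 6 were 2-fold higher and 1 lower, with a median of 0.30 against 0.23 over all genes. UACC-812 had 4 higher and 1 lower, MDA-MB-415 6 and 0, SKBR3 4 and 7, MDA-MB-453 0 and 4, and T47D 1 and 2. The 6 higher in CAL51 and the 7 lower in SKBR3 were shares near the 26.0% and 33.2% of all genes. The medians ran from -0.57, in SKBR3, up to 0.51, the value of MDA-MB-415. *KDELR3*, a receptor that retrieves proteins to the endoplasmic reticulum, was 139.8 in MDA-MB-415, 66.3 in CAL51 and 2.32 in SKBR3. *CRELD2* was 823 in MDA-MB-415 and 268 in CAL51, and *SDF2L1* 111 in UACC-812 and 48.7 in CAL51, where *XBP1* was 34.8.

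Genes that mark the luminal state were lower in CAL51, where 8 of the 9 genes were also lower. Of 22 luminal structural and surface genes 14 were 2-fold lower and 2 higher there, with a median of -2.94. The list was higher in T47D (12 higher, 2 lower) and UACC-812 (12 and 3), with medians of 1.17 and 1.14. In MDA-MB-415 the counts were 8 and 4, in MDA-MB-453 4 and 9 and in SKBR3 0 and 12. *PRLR*, the prolactin receptor gene, was 12847 in T47D, 7.10 in CAL51 and 232 to 610.2 elsewhere. *ANKRD30A*, a breast differentiation antigen gene, was 7309 in MDA-MB-453, against 92.4 and 63.6 in MDA-MB-415 and UACC-812 and at most 0.0323 in the other lines.

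**Figure D5:**
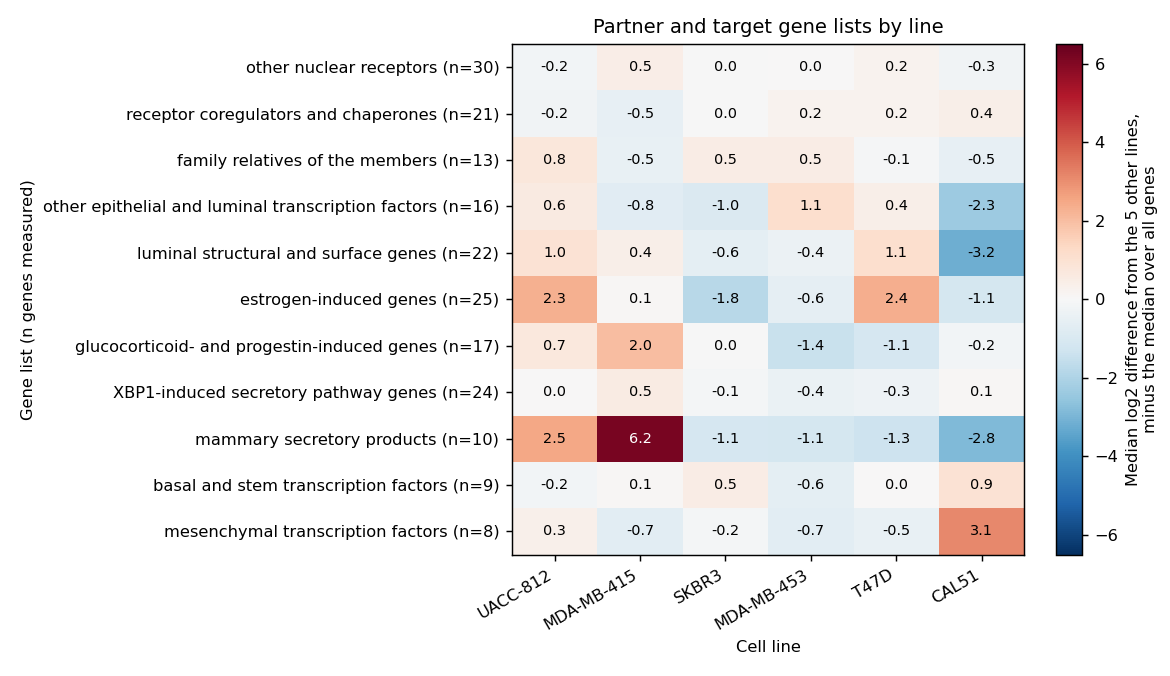
The map gives the median log2 difference of each gene list from the 5 other lines, minus the median over all genes, with the number of genes measured beside each name. The estrogen-induced list is 2.29 in UACC-812 and 2.37 in T47D, and the XBP1-induced list is 0.07 in CAL51.

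Of 16 other epithelial and luminal transcription factor genes, 9 were 2-fold lower and 3 higher in CAL51 (median -2.12), and 10 were higher and 1 lower in MDA-MB-453 (1.10). *GRHL2*, which maintains epithelial junctions, was 874 in T47D, 87.1 in SKBR3 and 0.536 in CAL51. *TBX3*, a T-box gene needed for mammary development, was 381 in MDA-MB-415 and 2.71 in CAL51. *KLF5* went the other way, with 299 in CAL51 and at most 69.6 elsewhere. In CAL51, 6 of 8 mesenchymal transcription factor genes were 2-fold higher and 2 lower (median 3.34). The higher ones included *HMGA2* at 674 against 1.38 to 1.84 in the other lines, *TWIST1* at 99.8 and *ZEB1* at 91.9. The 9 basal and stem factor genes had a median of 1.15 in CAL51, with 5 higher and 2 lower. In that list *ID4* was 64.8 in CAL51, while *TP63* was 73.5 and *SOX9* 102 in MDA-MB-415.

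Relatives of the 9 genes showed their own patterns. *ELF5*, an ETS relative of *SPDEF* that drives alveolar development in the mouse mammary gland, was 358 in T47D, 99.9 in UACC-812, 10.1 in SKBR3 and at most 1.36 elsewhere. *CREB3L1*, an endoplasmic reticulum stress factor gene, was 283 for MDA-MB-415, with no other line above 15.7, and its relative *CREB3L4* was 775 in MDA-MB-453 and 17.8 in CAL51. Over all 13 measured relatives the median was 0.95 in UACC-812 and between -0.52 and 0.47 elsewhere. Of 30 other nuclear receptor genes, 11 were 2-fold higher in T47D and 5 lower, and the median lay between -0.47 and 0.44 in all 6 lines. *NR2F1* was 228 in MDA-MB-453 and at most 8.55 elsewhere.

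Among the 21 coregulator and chaperone genes through which the receptors act, the widest range was 4.02 log2 units, in *MED1*. That of *NR2F1* was 7.84. None of the 21 was at 0 in any line. Their medians lay between -0.54 in MDA-MB-415 and 0.61 in CAL51, where 6 were 2-fold higher and 2 lower, shares close to the 26.0% and 14.5% of all genes. *MED1*, the Mediator subunit that binds nuclear receptors, was 5038 in SKBR3, 2103 in UACC-812 and 309.7 to 1064 elsewhere. *CARM1*, an arginine methyltransferase, was highest in CAL51, at 466, and lowest in SKBR3, at 51.1.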

How the data were processed

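Total RNA was extracted with Tri reagent, treated with DNase and made into mRNA libraries with a PrepX kit, per the labels' protocols. The submitters' processing notes name CASAVA 1.8, RSEM and hg19 without saying what each did. The alignment settings, annotation, filters and strand are not given in the sources used here. The deposited table holds 1 value per gene and line, read here as RPKM summed over exons. The unit is not labelled. RPKM was inferred from genes with a single exon, whose low values came out as whole reads, within 0.01, for 31.9% to 37.7% of them at the recovered depth, against medians of 1.30% to 1.50% at other depths. Such genes cannot tell a sum over exons from 1 RPKM for the whole gene. With all reads in the longest exon, the trace values of *ESR1* and *TFAP2B* differed from whole reads by -0.004 to 0.001. *PGR* in CAL51 differed by 0.106. RPKM values are not counts, so they were not fitted as counts. In an exon of 150 bp, 3 reads correspond to 0.548 to 0.781.

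Of 16444 entries, 22 names turned into dates and 4 repeated entries were left out. Levels were compared as log2(value + 1), which understates differences of low genes. Each line is its own group, and separate cultures are not labelled. Exon lengths came from GENCODE and promoters from RefSeq GRCh38.p14, used for names and sequence only. The 9 genes, 11 pathway lists and 4 marker lists were chosen with earlier results of these data known. Named genes were the 9, the 3 of widest range per list among those reaching 5, and the 3 nearest in pattern to each of the 9; *TFAP2A*, *EPCAM*, *PTPRC* and genome neighbours were added to these, and 4 genes that the rule names are not reported here. The low-read and neighbour comparisons were chosen after values were seen. Alternatives were pseudocounts of 0.1 and 5, 3 scalings, a filter at 5, a mean reference and leaving out each line. Code was tested on simulated data. Python 3.11.15, pandas 2.3.3, numpy 2.4.6, scipy 1.17.1 and matplotlib 3.10.9 were used.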

Additional observations from a re-analysis of the deposited data

How the results depend on the processing

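The 1 library per line leaves no replicate error, and differences near the value of 3 reads were not detectable. No paired analysis was possible because each line has 1 library and its replicate number is only a name. Of the 54 differences of a gene in a line, 9 changed sign under at least 1 of 13 alternatives, all of them under 2-fold in size as reported, and 0 of the 2-fold differences changed sign. *XBP1* in UACC-812 went from 0.24 to -0.52 with TMM, and in SKBR3 from -0.24 to 0.52. *PGR* in MDA-MB-415 went from 0.68 to -1.97 against a mean and to -2.35 without SKBR3 or CAL51, and *TFAP2B* in SKBR3 from 0.93 to -2.40 against a mean. The side of the 2-fold threshold changed for 23 of the 54 under at least 1 alternative. *TFAP2B* in CAL51 was -1.28 with TMM, which makes 9 genes lower there, and a pseudocount of 5 leaves 7. With TMM, median-of-ratios or upper-quartile scaling, 0 genes were apart in MDA-MB-453, since the gap of *TFAP2B* then fell under 2 log2 units. TMM moved SKBR3 by 0.55 and CAL51 by -0.29 log2 units. Leaving out lines gave 0 to 1 genes apart for UACC-812 and likewise 0 to 1 for MDA-MB-415, and 5 to 9 genes with a wide range, 5 being the value without CAL51. With a pseudocount of 5 the wide range held for 8 genes, and 13 of 27 nearest genes were shared with those named. List medians minus that of all genes moved most where genes sat at 0. With a pseudocount of 0.1, mesenchymal factors were -1.91 in MDA-MB-415, and mammary secretory products were -2.33, -3.49 and -5.72 in MDA-MB-453, T47D and CAL51. With a pseudocount of 5 those products were -1.71 and mesenchymal factors 1.85 in CAL51. The median of mammary secretory products in SKBR3 was -1.57 to 0.28 over the lines left out; it reversed to 0.22 without UACC-812 and to 0.28 without MDA-MB-415, and the cause was not tested. The other 652 list medians computed under an alternative moved less.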

Other observations

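Secretory products of the breast, another output of luminal cells, were led by MDA-MB-415. All 10 measured were at least 2-fold higher there than the median of the 5 other lines, against 19.7% of all genes, with a list median of 6.15. MDA-MB-415 was the highest line for 9 of them, and the share of all genes highest in that line was not computed. *SCGB2A2*, which encodes mammaglobin, was 71226 in MDA-MB-415, 160.1 in UACC-812, 17.5 in SKBR3, 0.706 in T47D, 0.313 in MDA-MB-453 and 0 in CAL51. *APOD*, which encodes the lipid carrier apolipoprotein D, was 3352 in MDA-MB-415, 304 in UACC-812, 204 in T47D, 45.1 in SKBR3 and 0 in MDA-MB-453 and CAL51. *AZGP1*, which encodes zinc alpha-2 glycoprotein, was 3228 and 1033 in MDA-MB-415 and MDA-MB-453, the 2 lines that held *TFAP2B*, and 127, 45.7, 14.6 and 0 in UACC-812, T47D, SKBR3 and CAL51. UACC-812 was 2-fold higher for 9 of the 10 (median 2.72), against 24.7% of all genes. The medians were -1.56, -1.13 and -1.23 in SKBR3, MDA-MB-453 and T47D, and -2.61 in CAL51, where 7 of the 10 were at 0. In SKBR3 the median, set against that of all genes, was -1.10, but 0.22 without UACC-812 and 0.28 without MDA-MB-415.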
